A study of Homo sapiens with 4 samples.

Results

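The tight junction scaffold and polarity genes are 9 genes, TJP1, TJP3, OCLN, MARVELD2, F11R, CGN, PARD3, PARD6B and CRB3. They were taken by symbol from a table of 18840 genes, and each had a single line with reads in all 4 libraries. Each passed the filter on low values, a mean of at least 1 CPM (counts per 1000000 reads) over the 4 libraries, as did 12484 genes in all.

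The data were poly(A) RNA-seq of MCF10A, an immortalised, non-tumorigenic human mammary epithelial cell line. Cells stably carried a pBabe retroviral vector with the microRNA miR-105, the same vector with MYC, with GFP, or with no insert. The same growth medium and TRIzol extraction were used for every construct. Each construct had 1 library, so none of the differences below has a replicate check, and no p-value was computed as a main result. The depth was 6859698 reads for miR-105, 9795159 for MYC, 14025115 for GFP and 9138429 for the empty vector. GFP and empty vector both served as controls.

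MYC mRNA was 463 CPM in the library labelled miR-105 and 232 CPM in the library labelled MYC, against 198 CPM with GFP and 207 CPM with the vector. MYC mRNA was thus highest in the library labelled miR-105 and not in the one labelled MYC, and both are named below by their labels. MXI1, a reported miR-105 target, was 14.0 CPM in the miR-105-labelled library and 79.2 CPM in the MYC-labelled library, against 88.9 with GFP and 81.2 with the vector.

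Tight junctions seal the space between neighbouring epithelial cells near their apical side. Membrane proteins span the gap, cytoplasmic scaffold proteins of the zonula occludens and cingulin families tie them to actin, and the PAR and Crumbs complexes place the belt at the border of the apical surface. TJP1 encodes ZO-1, whose transcript is a reported target of miR-105.

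A microRNA pairs with transcripts mainly through its seed, bases 2 to 8 from its 5′ end. The mature miR-105-5p and the TJP1 stretches that pair with its seed are shown because TJP1 is the reported target. Sequence of the microRNA is from RefSeq (GRCh38.p14), where both gene copies, chrX:152392265-152392287 and chrX:152394458-152394480 on the minus strand, give the same mature form. Capitals mark the seed.
hsa-miR-105-5p: uCAAAUGCucagacuccuguggu

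The letters GCATTTG, the reverse complement of that seed, were searched on the transcript strand in a single 3′ UTR per gene, the longest of a basic coding transcript in GENCODE release 29 on GRCh38. TJP1 (chr15:29699367-29968865, minus strand) held 4 matches in a 3′ UTR of 2228 bases. Of 19109 genes with a 3′ UTR, 2824 (14.8%) held at least 1 match and 19 (0.0994%) held 4 or more. Capitals mark the match, and names give its first base in the 3′ UTR.
TJP1 base 118, chr15:29701463-29701492: gtttgttagtatgagGCATTTGtttgaact
TJP1 base 329, chr15:29701252-29701281: ccagtaaatgggggtGCATTTGaggtctgt
TJP1 base 773, chr15:29700808-29700837: gactgagtacgttgtGCATTTGgtggtttc
TJP1 base 913, chr15:29700668-29700697: gttctttctggctatGCATTTGaaaatttt
The matches at bases 329 and 913 were followed by A, as was at least 1 match in 825 genes (4.32%). F11R (chr1:160995211-161021348, minus strand) held 1 match in a 3′ UTR of 3660 bases.
F11R base 28, chr1:160998829-160998858: caccgcctatcatctGCATTTGccttactc
No match was found in the 3′ UTRs of the other 7 genes, which were 129 to 4433 bases long. The median length was 2228 bases over the 9 genes and 1083 bases over all genes. A match is a run of letters and was not tested for binding.

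The 9 transcripts did not move as 1 block. In the miR-105-labelled library 5 of the 9 were at least 1.5-fold below both controls, against 26.0% of all tested genes, and TJP3 had nearly vanished. In the MYC-labelled library 4 were lower, against 18.0% of tested genes, with CGN nearly lost. TJP3 alone was higher there, against 17.3%. OCLN, CGN and PARD6B were lower in both. The comparisons share their control libraries, and the share of all tested genes lower in both is not given here. This overlap is thus a count only, and nothing is read from it. TJP1 itself was lower than both controls in both libraries, but the deeper loss was in the MYC-labelled one.

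**Figure D1:**
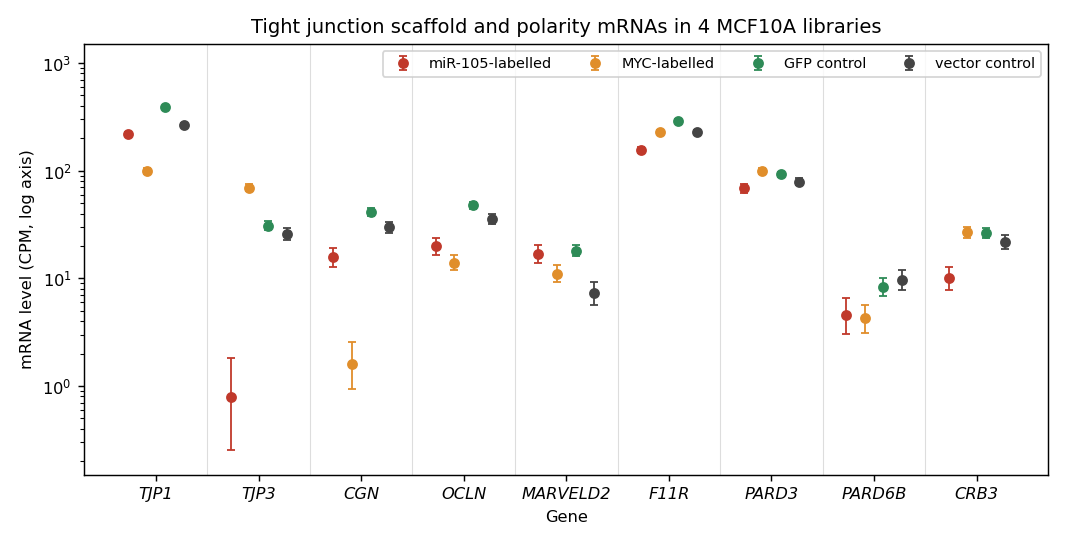
Normalised expression of each of the 9 genes in the 4 libraries, in CPM on a log axis, with exact Poisson 95% intervals of counting error as bars (1 library per construct). TJP3 stands at 0.784 CPM in the miR-105-labelled library and CGN at 1.61 CPM in the MYC-labelled library, each far below its other 3 values.

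Expression is in CPM after TMM scaling, which corrects for depth and composition. A gene was counted as higher or lower when it was at least 1.5-fold away from both controls. Intervals are exact 95% intervals, conditional binomial (Clopper-Pearson) for a ratio and Poisson for a level. They cover counting error only, and reads that carry no molecular identifiers do not count independent molecules.

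Among the scaffolds, TJP1 had 219 CPM in the miR-105-labelled library and 99.3 CPM in the MYC-labelled library, against 388 CPM with GFP and 264 CPM with the vector. Both controls lay above both construct libraries, and they also differed from each other by 1.47-fold (interval 1.40 to 1.54). TJP1 was 1.77-fold (1.67 to 1.88) lower in the miR-105-labelled library than with GFP but 1.21-fold (1.13 to 1.29) lower than with the vector, and so did not reach the 1.5-fold rule. In the MYC-labelled library it was 3.91-fold (3.66 to 4.18) lower than with GFP and 2.66-fold (2.48 to 2.87) lower than with the vector. It was 2.21-fold (2.04 to 2.39) higher in the miR-105-labelled than in the MYC-labelled library. A reduced share of cells with a transcript and less transcript per cell cannot be told apart in these bulk samples.

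TJP3 encodes ZO-3, the zonula occludens scaffold that is found mainly in epithelia. It had 5 reads or 0.784 CPM (0.255 to 1.83) in the miR-105-labelled library and 69.5 CPM in the MYC-labelled library, against 30.7 CPM with GFP and 25.8 CPM with the vector. The 2 construct libraries thus lay on opposite sides of the controls. In the miR-105-labelled library TJP3 was 39.1-fold (16.6 to 121) lower than with GFP and 32.9-fold (13.9 to 102) lower than with the vector. In the MYC-labelled library it was 2.26-fold (2.01 to 2.56) higher than with GFP and 2.69-fold (2.32 to 3.13) higher than with the vector. Averaged over both controls on the log2 scale, 0.4085% of tested genes had a lower fold in the miR-105-labelled library. The TJP3 3′ UTR that was searched held no seed match. It was 129 bases long, against a median of 1083 bases over all genes. So short a stretch leaves little room for a match, and nothing is read from its absence.

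CGN encodes cingulin, which links ZO proteins to actomyosin. It had 15.7 CPM in the miR-105-labelled library and 1.61 CPM, from 17 reads, in the MYC-labelled library, against 41.4 CPM with GFP and 29.9 CPM with the vector. Both construct libraries were below both controls. The MYC-labelled library was 25.7-fold (15.9 to 44.4) below GFP and 18.6-fold (11.4 to 32.4) below the vector. Averaged over both controls on the log2 scale, 1.033% of tested genes had a lower fold. The miR-105-labelled library was 2.64-fold (2.13 to 3.30) below GFP and 1.91-fold (1.51 to 2.42) below the vector. CGN was 9.73-fold (5.78 to 17.4) higher in the miR-105-labelled than in the MYC-labelled library, so CGN and TJP3 had opposite orders between these libraries.

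**Figure D2:**
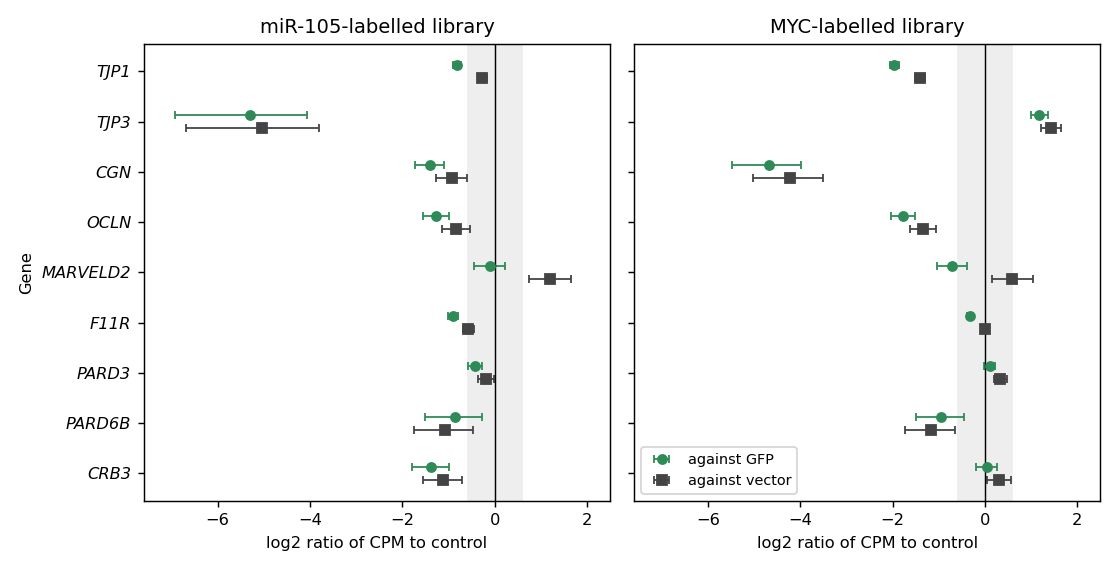
Ratios of the miR-105-labelled (left) and the MYC-labelled library (right) to each control for the 9 genes, on a log2 axis, with exact 95% intervals of counting error. The grey band spans ratios under 1.5-fold either way. TJP3 lies far to the low side of the band in the left panel and to the high side in the right panel, where CGN has the lowest ratios.

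The membrane proteins divided. OCLN encodes occludin, a tetraspan protein of the tight junction strands, and had 19.9 CPM in the miR-105-labelled library and 14.0 CPM in the MYC-labelled library, against 47.9 CPM with GFP and 35.5 CPM with the vector. It was below both controls in both. In the miR-105-labelled library it was 2.40-fold (1.99 to 2.93) below GFP and 1.78-fold (1.45 to 2.20) below the vector. In the MYC-labelled library it was 3.41-fold (2.85 to 4.11) below GFP and 2.53-fold (2.08 to 3.09) below the vector. OCLN has a near-identical pseudogene, OCLNP1, that counting could have shared reads with, so its values are uncertain to that extent.

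F11R encodes the adhesion receptor JAM-A. It had 154 CPM in the miR-105-labelled library and 231 CPM in the MYC-labelled library, against 290 CPM with GFP and 229 CPM with the vector. Only the miR-105-labelled library was well below the controls. It was 1.87-fold (1.75 to 2.01) below GFP and 1.48-fold (1.38 to 1.60) below the vector, just outside the 1.5-fold rule. F11R shares 1853 exon bases with the annotated gene AL591806.3 on the same strand, so reads could be assigned to either gene.

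MARVELD2 encodes tricellulin, which sits where 3 cells meet. It had 16.8 CPM in the miR-105-labelled library and 11.1 CPM in the MYC-labelled library, against 18.1 CPM with GFP and 7.35 CPM with the vector. The 2 controls bracketed both construct libraries, and the GFP library was 2.47-fold (1.88 to 3.27) above the vector, so no direction was given for it.

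The polarity genes differed from a control by at most 2.61-fold. PARD3 encodes the scaffold PAR-3, and had 68.9 CPM in the miR-105-labelled library and 99.4 CPM in the MYC-labelled library, against 92.7 CPM with GFP and 78.8 CPM with the vector. No difference from the controls passed 1.35-fold. PARD6B encodes PAR-6 beta, a partner of PAR-3 and atypical protein kinase C. It had 4.55 CPM in the miR-105-labelled library and 4.27 CPM in the MYC-labelled library, against 8.31 CPM with GFP and 9.62 CPM with the vector. These values rested on 29 and 45 reads, against 115 and 89 reads in the controls. Both libraries were lower than either control by 1.83- to 2.26-fold. The intervals of these folds, over both libraries, ran between 1.21 and 3.34.

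CRB3 encodes the small apical transmembrane protein of the Crumbs complex in epithelia. It had 10.0 CPM in the miR-105-labelled library and 26.9 CPM in the MYC-labelled library, against 26.2 CPM with GFP and 21.8 CPM with the vector. The miR-105-labelled library was the outlying one, 2.61-fold (1.998 to 3.46) below GFP and 2.18-fold (1.63 to 2.93) below the vector. CRB3 was 2.68-fold (2.04 to 3.58) lower in the miR-105-labelled than in the MYC-labelled library. CRB3 shares 15 exon bases with DENND1C on the opposite strand, and whether counting used strand is not given in the sources used here.

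None of the 9 was at least 1.5-fold higher than both controls in the miR-105-labelled library, against 24.6% of tested genes. Ignoring size, 8 of 9 were lower than both controls in the miR-105-labelled library, against 42.3%. In the MYC-labelled library 4 of 9 were, against 39.4%. The miR-105 median log2 difference over the 9 genes was −0.90, with a range of −4.48 to 0.51, against a median of 0.01 over all tested genes. The MYC median was −0.16, with a range of −4.08 to 1.29, against 0.04. The miR-105 count fell to 2 of 9 at a 2-fold rule, where 18.5% of tested genes were lower, and to 1 of 9 with DESeq2 and vector and GFP as 1 control group, where 14.0% were. The MYC median turned to 0.0091 with the vector as the sole control and to −0.68 with GFP as the sole control.

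**Figure D3:**
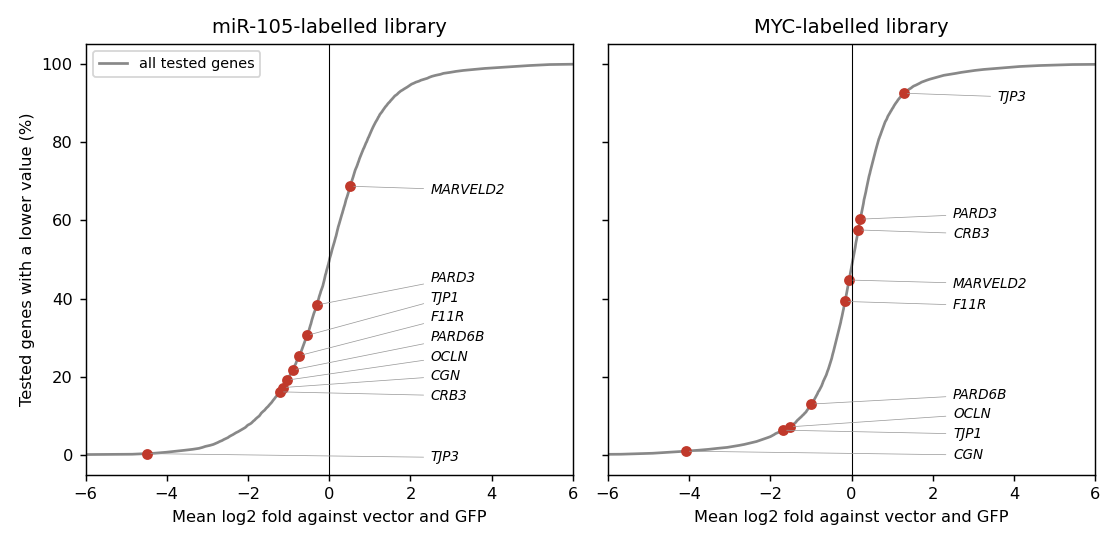
Log2 fold of each of the 9 genes against both controls, averaged over the controls on a scale with 0.5 CPM added (x axis), in the miR-105-labelled and the MYC-labelled library, on the curve of the percent of all 12484 tested genes with a lower value (y axis). TJP3 lies at the low end in the miR-105-labelled library and CGN at the low end in the MYC-labelled library, while PARD3 is near the middle in both.

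The 2 control libraries differed too. In the GFP library 8 of the 9 genes were above the vector, against 52.8% of tested genes, and 1 (MARVELD2) passed 1.5-fold, against 14.2% of tested genes higher by that rule. The other gene, PARD6B, was 1.16-fold lower, and 0 were at least 1.5-fold lower, against 8.42%. The GFP over vector median was 0.34 on the log2 scale, against 0.03 over all tested genes. Comparing the construct libraries with each other, 3 genes (TJP1, MARVELD2 and CGN) were higher in the miR-105-labelled than in the MYC-labelled library and 2 (TJP3 and CRB3) were lower, against 31.0% and 30.3% of tested genes. MARVELD2 only just passed the rule, at 1.51-fold (1.15 to 1.98).

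Levels were compared between genes per length, as reads per kilobase of exon per 1000000 reads (RPKM). F11R had the highest level in every library, at 32.0 in the miR-105-labelled and 47.7 in the MYC-labelled library, against 59.9 with GFP and 47.4 with the vector. TJP1 was second in the miR-105-labelled library at 22.6, against 40.0 with GFP and 27.3 with the vector, but the fifth in the MYC-labelled library at 10.2. TJP3 was second there at 19.4, with an interval that overlapped that of CRB3 at 16.9. TJP3 was ninth in the miR-105-labelled library, at 0.219. CGN was ninth in the MYC-labelled library at 0.317, though it held the sixth place in the other libraries. In both controls the intervals of TJP3 and CGN, at the fifth and the sixth place, overlapped. MARVELD2, CGN and OCLN overlapped in turn in the miR-105-labelled library, at 3.43, 3.08 and 3.04.

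The balance of the TJP1 and TJP3 scaffolds differed between libraries. Per length, TJP3 made up 0.962% of the summed TJP1 and TJP3 level in the miR-105-labelled library and 65.5% in the MYC-labelled library, against 17.7% with GFP and 21.0% with the vector. The summed level was 22.8 RPKM in the miR-105-labelled library and 29.7 RPKM in the MYC-labelled library, against 48.6 RPKM with GFP and 34.5 RPKM with the vector. TJP3 thus exceeded TJP1 in the MYC-labelled library and in none of the other 3.

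The cingulin pair differed in makeup too. CGN made up 97.9% of the CGN and paracingulin (CGNL1) level in the miR-105-labelled library and 40.1% in the MYC-labelled library, against 95.5% with GFP and 94.7% with the vector. The pair's summed level was 3.15 and 0.789 RPKM, against 8.51 and 6.21. Of the summed OCLN, MARVELD2 and MARVELD3 level, OCLN made up 24.2% and 31.5%, against 38.5% with GFP and 41.6% with the vector. Among PAR-6 genes, PARD6B made up 33.6% and 11.6% of the level, against 28.6% with GFP and 40.2% with the vector. F11R made up at least 98.2% of the JAM level in every library. CRB3 made up 96.0% of the Crumbs level with the vector and more in the other libraries.

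**Figure D4:**
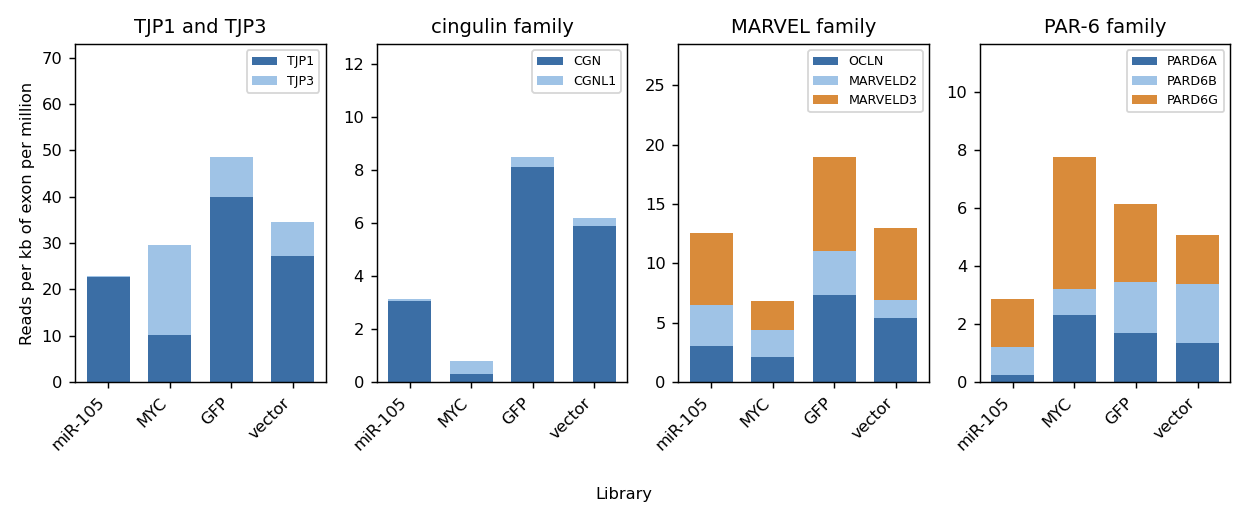
Stacked per-length levels of the TJP1 and TJP3 pair and of the cingulin, MARVEL and PAR-6 families, in RPKM, in the miR-105-labelled, MYC-labelled, GFP and vector libraries from left to right. TJP3 takes 0.962% of its bar in the miR-105-labelled library and 65.5% in the MYC-labelled library.

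Promoter sequence (250 bases before to 50 after the start, RefSeq GRCh38.p14) was examined because the E-box CACGTG, the MYC and MAX recognition motif, bears on the MYC label. Of 11 promoters for 6 of the genes, 3 held CACGTG, those of CGN, TJP3 and CRB3, against 2548 of 35116 promoters (7.26%). Both strands read the same. The motif began 178, 92 and 34 bases before the start. The 3 genes behaved differently in the MYC-labelled library, where CGN was lower, TJP3 higher and CRB3 neither. CAGGTG, read on either strand, is the letters of an E-box bound by SNAI and ZEB repressors; it occurred in 5 of the 11 promoters, against 20.6% of all promoters, and these belonged to TJP1, TJP3, OCLN (both of its promoters) and CRB3. AACCGG, read on either strand, is a Grainyhead motif; it occurred in 3 of the 11, those of OCLN, MARVELD2 and CGN, against 7.23% of all promoters. No matches to the 3 motifs overlapped in these promoters. For TJP3 the CACGTG and the CAGGTG lay in separate promoters, the CAGGTG in that at chr19:3721487-3721786. Capitals mark CACGTG.
CGN, chr1:151511137-151511436, plus strand: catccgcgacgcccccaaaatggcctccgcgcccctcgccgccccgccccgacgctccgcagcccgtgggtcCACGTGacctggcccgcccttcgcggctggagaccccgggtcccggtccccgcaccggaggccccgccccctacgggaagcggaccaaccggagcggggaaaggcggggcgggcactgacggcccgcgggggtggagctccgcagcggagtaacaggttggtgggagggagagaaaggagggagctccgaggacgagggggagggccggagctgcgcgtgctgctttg
TJP3, chr19:3708134-3708433, plus strand: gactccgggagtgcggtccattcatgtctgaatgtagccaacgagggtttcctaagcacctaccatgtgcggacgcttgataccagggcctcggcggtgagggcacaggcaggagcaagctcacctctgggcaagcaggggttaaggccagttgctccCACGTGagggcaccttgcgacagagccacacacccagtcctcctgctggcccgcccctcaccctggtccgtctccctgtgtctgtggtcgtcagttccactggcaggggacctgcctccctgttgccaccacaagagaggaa
CRB3, chr19:6464021-6464320, plus strand: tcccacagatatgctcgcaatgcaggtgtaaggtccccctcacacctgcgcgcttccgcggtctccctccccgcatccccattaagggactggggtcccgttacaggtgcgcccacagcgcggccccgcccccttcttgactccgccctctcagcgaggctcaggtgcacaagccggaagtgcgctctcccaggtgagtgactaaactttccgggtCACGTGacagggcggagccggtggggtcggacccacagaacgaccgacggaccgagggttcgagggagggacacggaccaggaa
A match describes letters and shows no binding.

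Genes that work with the 9 were counted from 8 lists of 60 junction, polarity and regulator genes, chosen with earlier results of these data known. Of these, 52 passed the filter. In the miR-105-labelled library 17 were lower (32.7%) and 4 higher (7.69%), with a median log2 difference of −0.39. In the MYC-labelled library 15 were lower (28.8%) and 6 higher (11.5%), with a median of −0.36. These shares stand beside 26.0% and 24.6% of all tested genes for miR-105 and 18.0% and 17.3% for MYC. In the GFP library 12 were at least 1.5-fold higher than with the vector (23.1%) and 0 lower, against 14.2% and 8.42% of all tested genes.

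The counts of each list below stand beside the same shares of all tested genes. These were 26.0% lower and 24.6% higher for miR-105, and 18.0% and 17.3% for MYC. With few genes per list, nothing is read from a single count. Of 8 tested plaque genes, 2 were lower and 0 higher in the miR-105-labelled library, and 1 was lower and 1 higher in the MYC-labelled one. AMOTL2, an angiomotin that binds the plaque, was 88.6 and 60.4 CPM in those libraries, against 309 CPM with GFP and 277 CPM with the vector. CGNL1 had 3 reads in the miR-105-labelled library, and was 5.83-fold (1.85 to 29.5) below GFP and 5.05-fold (1.52 to 26.4) below the vector. MPDZ, a multi-PDZ scaffold, was 5.32-fold higher than GFP and 12.7-fold higher than the vector in the MYC-labelled library. Of 4 tested membrane genes other than claudins, 2 were lower and 1 higher in the miR-105-labelled library, and 1 was lower and 1 higher in the MYC-labelled one. BVES, a membrane protein reported at cell contacts, had 0 reads in the miR-105-labelled library, against 41 with GFP and 16 with the vector, and was at least 6.29- and 3.68-fold lower. CXADR, an adhesion receptor, was 11.1 CPM there, against 31.4 CPM with GFP and 23.1 CPM with the vector. JAM3, related to F11R, was higher in both, with 11 and 26 reads, against 9 with GFP and 4 with the vector. In the miR-105-labelled library it was 2.65-fold (0.9997 to 7.25) above GFP and 3.99-fold (1.18 to 17.2) above the vector, so the first interval included no difference. In the MYC-labelled library it was 3.79-fold (1.72 to 9.20) above GFP and 5.70-fold (1.98 to 22.5) above the vector. MARVELD3, the third MARVEL protein beside OCLN and MARVELD2, was 3.33- and 2.55-fold lower than GFP and vector in the MYC-labelled library.

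In the PAR complex, of 7 tested genes 3 were lower and 2 higher in the miR-105-labelled library, and 1 was lower and 1 higher in the MYC-labelled one. PARD3B, a paralogue of PARD3, was 9.52- and 6.09-fold lower than GFP and vector in the miR-105-labelled library. PARD6A had 2 reads there and was 6.91-fold (1.75 to 59.7) and 5.51-fold (1.30 to 49.4) lower. PRKCZ, an atypical protein kinase C, was 27.1 CPM there, against 45.8 CPM with GFP and 57.1 CPM with the vector. The 2 genes higher there were CDC42 and TIAM1, the second described below. CDC42 was 358 CPM, against 184 CPM with GFP and 200 CPM with the vector. PARD6G, a paralogue of PARD6B, was 1.70- and 2.74-fold higher than GFP and vector in the MYC-labelled library. The Crumbs complex had 2 of 5 tested genes lower in the miR-105-labelled library and none higher, with neither in the MYC-labelled one. LIN7B had 3 reads in the miR-105-labelled library and was 8.44-fold (2.74 to 42.2) below GFP and 11.7-fold (3.79 to 58.7) below the vector. CRB2, a paralogue of CRB3, had 5 reads there and was 2.86-fold (1.10 to 9.41) and 4.14-fold (1.59 to 13.7) lower. The Scribble module, the basolateral polarity group, had 1 of 4 lower in each library, LLGL2 both times.

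Epithelial transcription and splicing regulators had the lowest medians of the 8 lists, −1.20 with miR-105 (5 of 9 lower, 0 higher) and −0.85 with MYC (6 lower, 1 higher). GRHL1, a Grainyhead factor, was 5.80 and 2.28 CPM, against 42.9 CPM with GFP and 23.6 CPM with the vector. GRHL2, known to regulate junction genes in epithelia, was 101 CPM in the miR-105-labelled library and had 0 reads in the MYC-labelled library, against 155 CPM with GFP and 113 CPM with the vector. Against a floor of 3 reads it was at least 547-fold lower than with GFP and at least 398-fold lower than with the vector. GRHL3 was the 1 gene of this list called higher in the MYC-labelled library, at 3.32 CPM, against 1.23 CPM with GFP and 1.51 CPM with the vector. In the miR-105-labelled library GRHL3 had 2 reads and was called lower. OVOL1 and OVOL2 encode zinc finger factors of epithelia. OVOL1 was 2.20 and 0.379 CPM, from 14 and 4 reads, against 7.51 CPM with GFP and 6.05 CPM with the vector. OVOL2 was 22.6 and 5.97 CPM, against 52.2 CPM with GFP and 68.9 CPM with the vector. ELF3, an epithelial ETS factor, was 46.3 CPM and 302 CPM, against 510 CPM with GFP and 561 CPM with the vector. Among 6 repressors of junction genes, 0 were called in the miR-105-labelled library, and 1 was higher (TCF4) and 1 lower (SNAI2) in the MYC-labelled one. Of 9 adherens junction genes 2 were lower and 1 higher with miR-105, and 4 were lower and 1 higher with MYC. JUP, which encodes plakoglobin, was 1.58- and 1.61-fold lower than GFP and vector in the miR-105-labelled library. NECTIN2, a nectin, was 30.3 CPM in the MYC-labelled library, against 113 CPM with GFP and 114 CPM with the vector. CDH1, which encodes E-cadherin, was 183 CPM in the MYC-labelled library, against 768 CPM with GFP and 549 CPM with the vector.

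**Figure D5:**
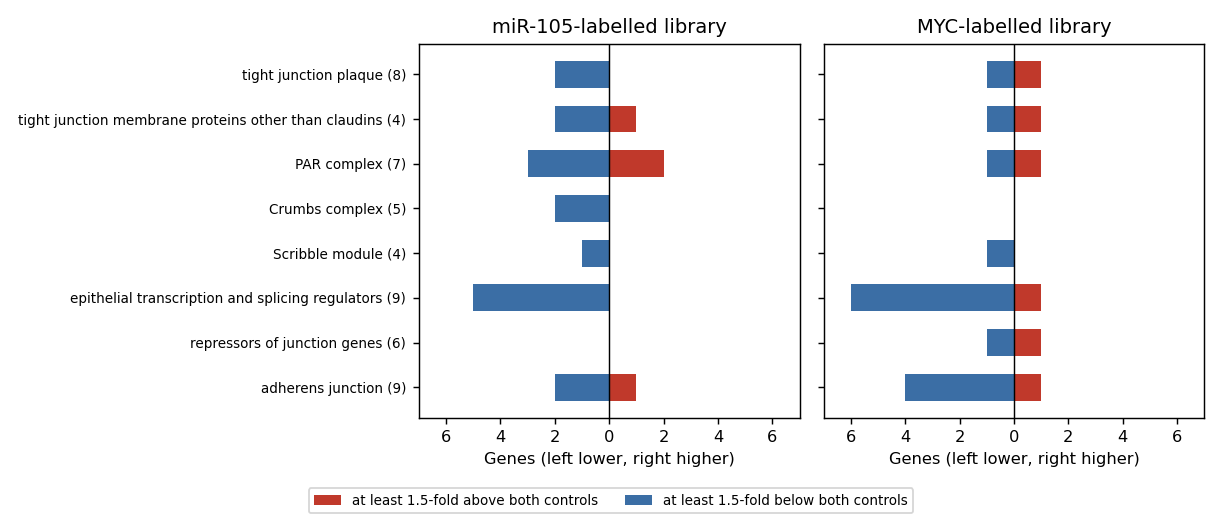
Number of genes in each of the 8 lists that were at least 1.5-fold below (left) or above (right) both controls, in the miR-105-labelled and the MYC-labelled library, with the number tested beside the name of the list. The epithelial regulators have the longest bars, 5 and 6 genes lower.

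The labelled cell type was checked against markers of mammary epithelium and of other cells. Of 9 epithelial markers in the table, all had reads in every library, and their summed level was 7411 CPM with miR-105 and 7925 CPM with MYC, against 10080 CPM with GFP and 11880 CPM with the vector. KRT17 was 766 and 1777 CPM, against 5131 CPM with GFP and 6927 CPM with the vector, whereas KRT5 was 4654 and 4138 CPM, against 1614 and 1757 CPM. Of 7 fibroblast markers, 3 were at 0 in each construct library and 2 in each control, COL3A1 in all 4, and the sum was 27.4 and 158 CPM, against 84.7 and 131 CPM. Most of that sum was DCN, at 16.0 and 141 CPM, against 69.4 and 117 CPM, while COL1A2 was highest with miR-105, with 10 and 0 reads, against 1 and 1. Of 5 immune markers the sums were 22.4 and 17.7 CPM, against 24.2 and 29.5 CPM, with PTPRC at no more than 1 read. CD68 and CD14 carried nearly all of these sums. CD68 was 18.8 and 8.34 CPM, against 13.7 and 19.5 CPM, and CD14 was 3.61 and 9.39 CPM, against 10.4 and 9.41 CPM. Of 5 endothelial markers the sums were 3.61 and 92.2 CPM, against 49.6 and 46.8 CPM. KDR was 1.73 and 88.9 CPM, against 33.0 and 32.6 CPM, and PECAM1 was 1.73 and 2.46 CPM, against 15.9 and 12.8 CPM. Epithelial, fibroblast and endothelial sums were thus all lowest in the miR-105-labelled library, though not every marker was. KRT17 was the largest part of the epithelial sum in both controls. By the 1.5-fold rule, 3 of the 9 epithelial markers (KRT5, KRT18 and EPCAM) were higher in the miR-105-labelled library and 3 (KRT14, KRT17 and LAMB3) lower. These counts stand against 24.6% and 26.0% of all tested genes. The immune sum was lowest in the MYC-labelled library. The part of any of these markers in the junction differences was not tested.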

How the data were processed

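Per the labels' protocols, poly(A) RNA was sequenced from 4 stable MCF10A lines, 1 library each. TopHat2, edgeR and hg19 appear in the submitters' processing notes. For the counter of reads, the annotation and strandedness, the sources used here give nothing. The authors deposited 1 depth-adjusted signal value per gene and library, not the raw counts the planned design assumed. These values had the form of edgeR pseudo-counts. Inverting them at a common dispersion of 0.0553, with vector and GFP adjusted as 1 group, gave whole reads for 100% of 18859 values per library within a relative tolerance of 1e-05. After dropping 19 repeated lines, 18840 genes remained.

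Recovered reads were scaled by TMM (edgeR 4.0.16, R 4.3.3), so that 1 read was 0.157 CPM for miR-105, 0.0948 for MYC, 0.0722 for GFP and 0.108 for the vector. Genes averaging 1 CPM or more over the libraries were compared. Log2 differences used 0.5 CPM as pseudocount, which understates low genes, and folds of single genes had nothing added. A fold against 0 reads used a floor of 3 reads in that library. The inversion, the fold rule and the edgeR test were tested on simulated data. Per-length levels used the union of exons of GENCODE release 29 on GRCh38, so coordinates given are those of the annotation and not of the table. Promoters and the microRNA came from RefSeq. Statistics were computed with Python 3.11.15 and scipy 1.17.1.

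The 9 members and the 8 lists were chosen with earlier results of these data known. All 9 members are named, with up to 4 called genes per list and comparison that had the largest log2 folds against both controls, and the 5 genes nearest to TJP1 and to CGN by Euclidean distance of centred log2 CPM. GRHL3 is named in addition, as the only gene of its list called higher. TJAP1 and KRT8 were not analysed here, and some genes of the planned lists are not reported here. Alternatives were other scalings, filters and fold thresholds, each control alone, the deposited values as they stand, and edgeR and DESeq2 (1.42.0) with vector and GFP as 1 control group, which leaves 1 residual degree of freedom. All alternatives for the miR-105 against MYC counts were added after the data had been seen.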

Additional observations from a re-analysis of the deposited data

Results flagged for a closer look

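TJP3 was the only one of the 9 genes that lay below both controls in one construct library and above both in the other by the 1.5-fold rule. Its level was 0.784 CPM in the miR-105-labelled library, below both controls, and 69.5 CPM in the MYC-labelled library, above both controls, which had 30.7 CPM with GFP and 25.8 CPM with the vector. It was 88.6-fold (interval 37.8 to 274) lower in the miR-105-labelled than in the MYC-labelled library. The interval covers counting error only. With 1 library per construct the difference was not tested. The share of all tested genes called in opposite directions in the construct libraries is not given here. Whether 1 such gene among 9 is unusual was thus not tested. TIAM1 and GRHL3, from the lists of partner genes, were also called in opposite directions.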

How the results depend on the processing

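With the vector as the sole control, 1 gene was higher in the miR-105-labelled library in place of 0, 2 were higher in the MYC-labelled library in place of 1, and the MYC median log2 difference was 0.0091 in place of −0.16. That median was −0.68 with GFP as the sole control and −0.0515 with library totals as the scaling. The count of genes lower in the miR-105-labelled library was 2 at a 2-fold rule and 1 with DESeq2 in place of 5, where DESeq2 called 14.0% of all tested genes lower. It was 6 with DESeq2 size factors, library totals or the deposited values, and 4 with edgeR. With library totals, 4 genes in place of 2 were lower in the miR-105-labelled than in the MYC-labelled library, and 3 were with DESeq2 size factors or the deposited values. Under each of these 3 scalings, 2 genes in place of 3 were higher in the miR-105-labelled than in the MYC-labelled library. The shares of all tested genes called under these scalings, with edgeR and with the vector as the sole control are not given here. The cause of these shifts was not tested. Under the other alternatives run, the counts stayed within 1.5 times of the reported ones and the medians kept their sign. Of the values of single genes, 56 of 63 for miR-105 and 55 of 63 for MYC stayed within the counting interval of the reported value, and none of the differences from both controls that passed the 1.5-fold rule changed sign. No paired analysis was possible because each construct had 1 library. At 5 to 45 reads, TJP3 and PARD6B in the miR-105-labelled library and CGN and PARD6B in the MYC-labelled library were limited by depth, and their intervals are the widest.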

Other observations

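Over the 4 libraries, the gene whose centred log2 CPM lay nearest to that of TJP1, among 9833 genes of at least 10 CPM, was CNNM4, at a distance of 0.06 on the log2 scale, with 42.0 and 18.6 CPM in the miR-105- and MYC-labelled libraries, against 70.8 CPM with GFP and 50.2 CPM with the vector. It encodes a magnesium transporter. PDLIM5, KIF3C, CASP2 and PTPN21 followed at 0.10 to 0.21. For CGN the nearest was RAB15 at 0.14, with 13.3 and 1.23 CPM, against 30.8 CPM with GFP and 23.8 CPM with the vector. L1CAM, PCDH1, NTN4 and MYO5B followed at 0.31 to 0.46. With 4 points per gene and many genes compared, such likeness is a description only.

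TIAM1, a Rac activator that binds PAR-3, had opposite positions in the construct libraries. It was 51.9 CPM in the miR-105-labelled library and 1.14 CPM in the MYC-labelled library, against 10.3 CPM with GFP and 8.11 CPM with the vector. The nectins, adhesion proteins of the adherens junction, also changed in makeup. NECTIN1 was 59.8 and 113 CPM, against 17.8 CPM with GFP and 12.6 CPM with the vector. NECTIN4 was 1.88 and 13.7 CPM, against 53.4 CPM with both controls.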
